A study of Mus musculus with 15 samples.

Results

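The collagen and laminin genes were taken as every gene whose whole symbol in the deposited gene list reads Col, a number, a and a number (such as Col4a1), or Lama, Lamb or Lamc followed by a number. They made up 54 of the 26145 genes in the matrices, 43 for collagen chains and 11 for laminin chains. Each had at least 1 unique molecular identifier (UMI, the tag that marks a single captured mRNA molecule) in the retained cells, and 6 had fewer than 50 in all.

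Collagens are proteins of the extracellular matrix whose chains wind around each other into a rope. Type IV chains (Col4a1 and Col4a2 are the common pair) form the sheet-like network of basement membranes, other collagens form fibrils or decorate them, and a few, such as Col25a1, span the cell membrane. Laminins join an alpha, a beta and a gamma chain, each encoded by its own gene, and they are the other main network of basement membranes. In the brain, such membranes wrap every vessel and lie between endothelial cells, pericytes and astrocyte endfeet.

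The mice were male C57BL/6N, and the prefrontal cortex (PFC) was dissociated and captured in droplets for single cell RNA sequencing. Of the 15 libraries, 12 came from adults, called P60 in the study and 8-10 weeks in the labels, and 3 from untreated mice at P21 (3 weeks). The adult mice had self-administered cocaine or saline through an intravenous catheter, with 2 libraries of each treatment at each of 3 Periods: the end of the maintenance phase, 48 h of withdrawal and 15 d of withdrawal. In the study the catheters were implanted at P60. Tissue was thus taken after that age, and later at 15 d of withdrawal than at maintenance. A pair of mice was pooled for each adult library. For P21 the methods name fewer mice than 3 such pairs would need, so that P21 libraries may share animals, and p-values measure the spread between libraries only. A tissue entry in the labels reads NAc, whereas the titles and source names give PFC.

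The retained cells numbered 24822 at P60 and 10538 at P21, from 1055 to 4439 in a library, and held from 8375172 to 42892922 UMIs in a library. No more than 1.09% of the barcodes of a library were shared with another. UMIs were summed over all cells of a deposited class in a library and given as counts for every 1000000 UMIs of that class (CPM), without a correction for gene length, since reads come from the 3′ end of the transcript. Fewer cells of a kind within a class and less RNA per cell cannot be told apart in such sums. Cell classes and clusters are those deposited by the authors: endothelial (Endo), astrocyte (Astro), microglia, oligodendrocyte precursor (OPC), newly formed oligodendrocyte (NF Oligo), mature oligodendrocyte (Oligo), excitatory and inhibitory neurons. At P60 at least 99.4% of the cells of a class lay in a cluster of the same name. At P21 this held for 55.3% of the microglia class, 75.6% of the Astro class and 43.1% of the OPC class, and for 93.2% or more of the other classes, so calls in the microglia and Astro classes are given with and without the remaining cells.

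At P60 the genes differed in the cell class in which they were highest. A mean of 20 CPM over the P60 libraries was reached by 17 of them in a class, and by 25 in a class or cluster. In Endo, 10 were at that level, against 6 in NF Oligo, 4 in OPC, 3 in Astro, 2 in inhibitory neurons and 1 each in microglia, Oligo and excitatory neurons. Classes were made from the same cells, so these levels are descriptions with no test.

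**Figure D1:**
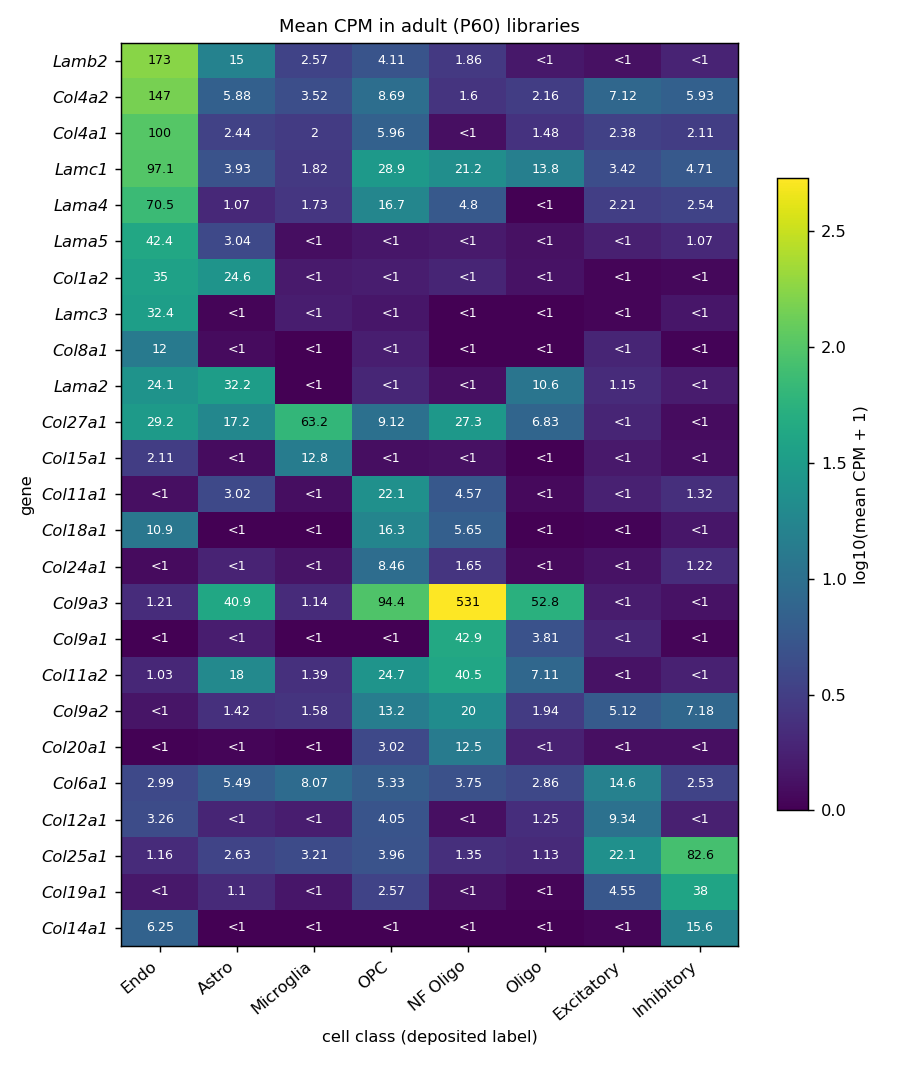
Mean CPM over the P60 libraries of the 25 collagen and laminin genes (rows) that reached 20 CPM in a class or cluster, in the 8 deposited cell classes (columns), with colour as log10(mean CPM + 1). Endothelial cells have the highest means of Col4a1, Col4a2, Lama4, Lama5, Lamb2, Lamc1 and Lamc3, NF Oligo those of the type IX genes with Col9a3 at 531 CPM, Astro that of Lama2, and inhibitory neurons Col25a1 at 82.6 CPM.

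The Endo class held the genes of the vascular basement membrane. Lamb2, the laminin beta 2 chain, was the highest, with 141 CPM in the lowest, 174 in the median and 204 in the highest of 12 P60 libraries. Col4a2 followed with 126, 147 and 194 CPM, and Col4a1 with 77.1, 96.9 and 130.1 CPM. The ranges of Lamb2 and Col4a2 overlapped, while Lamb2 was above Col4a1 in 12 of 12 libraries. The gamma 1 chain gene Lamc1 had a mean of 97.1 CPM, the alpha 4 and alpha 5 chains of vessel laminins, Lama4 and Lama5, 70.5 and 42.4 CPM, and Lamc3, another gamma chain, 32.4 CPM. Every Endo value of Col4a1, Col4a2, Lama4, Lama5, Lamb2 and Lamc1 exceeded that of the next class in the same library, in 11 of 11 libraries, and so did Lamc3 in 12 of 12. Col8a1, a short-chain collagen, was at 12.0 CPM in Endo and at no more than 0.913 CPM in any other class. An exon of another gene lies within 300 bases of the 3′ end of Lamb2 (Usp19, same strand), Lama5 (Adrm1, other strand) and Col9a3 (Tcfl5, other strand), so that reads there may be shared, and these levels are less certain.

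Within the 13 Endo clusters, these genes did not all peak together. Endo_12 had the highest mean for Col4a1 (141 CPM), Col4a2 (201 CPM) and Lama4 (100.2 CPM), in 6 libraries. Endo_2, in which the summed smooth muscle markers (4117 CPM) and fibroblast markers (1023 CPM) were the highest of the clusters, led for Lamb2 (241 CPM), Col1a2 (90.4 CPM) and Col18a1 (51.9 CPM), the gene of the collagen that releases endostatin. Endo_5, with the highest pericyte marker sum (14151 CPM, beside 17299 CPM of endothelial markers), led for Lamc1 (137 CPM) and Lama2 (54.6 CPM). Endo_1 led for Lama5 (58.8 CPM) and Lamc3 (50.9 CPM), and Endo_6 for Col8a1 (25.1 CPM). In Endo_7, where pericyte markers summed to 1701 CPM, the lowest of the 13 clusters, Lamc1 was at 49.7 CPM and Lama2 at 3.37 CPM. Endo_13, with 160548 CPM of haemoglobin genes, was the lowest for Col4a1 (57.6 CPM), Col4a2 (75.6 CPM), Lamb2 (92.5 CPM) and Lamc1 (42.2 CPM). The spread over libraries within a cluster was wide, for Lamb2 in Endo_2 from 142 to 368 CPM, so that neighbouring clusters in these orders overlap.

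Col9a3 and its partner chains of type IX collagen, a fibril-associated collagen best known from cartilage, were highest in the oligodendrocyte lineage. Col9a3 was at 357, 542 and 799 CPM (lowest, median and highest of 11 P60 libraries) in NF Oligo. It was lower in OPC, with 41.5, 89.9 and 139 CPM in 11 libraries, and in Oligo, with 22.1, 54.8 and 98.1 CPM in 12. NF Oligo lay above OPC in 11 of 11 libraries, while OPC and Oligo overlapped. Col9a1 in NF Oligo was at 17, 40.1 and 87.1 CPM and Col11a2, a fibril-forming chain, at 10.0, 29.1 and 95.9 CPM. The remaining chain, Col9a2, had a mean of 20.01 CPM there and 13.2 CPM in OPC, and Col20a1 had 12.5 CPM in NF Oligo. OPC themselves held Lamc1 at 9.30, 27.3 and 79.9 CPM and Col11a2 at 13.8, 25.7 and 34.9 CPM. Col11a1 (22.1 CPM) and Col18a1 (16.3 CPM) were also highest in OPC among classes, and Col24a1 reached 20.7 CPM in cluster OPC_9 on 2 UMIs. Oligo carried Lamc1 at 5.52, 13.3 and 23.3 CPM and Lama2 at 1.97, 10.3 and 22.5 CPM.

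In astrocytes, Col9a3 was at 29.9, 41.8 and 57.4 CPM over 11 P60 libraries. Lama2, the alpha chain of astrocyte and muscle laminin, was at 26.2, 30.5 and 42.6 CPM and exceeded its level in Endo (mean 24.1 CPM) in 9 of 11 libraries. Col1a2, a chain of the fibril-forming type I collagen, was at 11.2, 24 and 42.5 CPM, below Endo (35.0 CPM) in 10 of 11 libraries. Col1a1, the partner chain, was far lower than Col1a2 in both classes, with 7.74 CPM in Astro and 1.98 CPM in Endo. In microglia the highest of these genes was Col27a1, a fibril-forming collagen, with 32.0, 65.3 and 84.9 CPM in 12 libraries, above Endo in 12 of 12. By cluster, its highest mean was 105 CPM in Microglia_8. Microglia_3, at 39.7 CPM, was below Endo_6 (53.7 CPM) and NF Oligo_2 (88.5 CPM, on 8 UMIs). The next genes of microglia were low: Col15a1 was at 4.20, 12.2 and 23.2 CPM, and Col6a1 at 0, 1.01 and 41.5 CPM.

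Fewer of these genes reached 20 CPM in the neuronal classes than in Endo. Col25a1 encodes a membrane-spanning collagen first found in amyloid plaques, and it was at 0, 81.1 and 223 CPM (lowest, median and highest of 12 P60 libraries) in inhibitory neurons. Both extremes were saline maintenance libraries with few such cells. In excitatory neurons it was at 16.2, 21.6 and 29.0 CPM, below inhibitory neurons in 11 of 12 libraries. Col19a1, which organizes inhibitory synapses, was at 22.3, 35.0 and 82.5 CPM in inhibitory neurons, above excitatory neurons in 12 of 12 libraries, and Col14a1 at 4.33, 14.2 and 30.8 CPM. The cluster Inhib_10, with 27 cells in 2 libraries, had the highest Col25a1 (256 CPM) and Col19a1 (96.0 CPM) of any cluster, and Col14a1 was highest in Inhib_8 (25.5 CPM, 6 UMIs).

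Excitatory neurons carried Col6a1, a chain of the beaded-filament type VI collagen, at 9.67, 14.4 and 19.3 CPM, and Col12a1, a fibril-associated collagen, at 5.38, 8.14 and 15.9 CPM. Col6a1 reached 20 CPM in 9 excitatory clusters, from 20.6 CPM in Exc_5 to 65.9 CPM in Exc_26 and 67.2 CPM in Exc_12. Col12a1 reached it in 5, with 70.4 CPM in Exc_21 and 43.9 CPM in Exc_19. Col25a1 reached it in 15, with its highest mean of 40.2 CPM in Exc_10. Lamb1, the beta 1 chain, was highest in inhibitory neurons (14.6 CPM), ahead of Endo (9.18 CPM) in 9 of 12 libraries.

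The remaining 17 genes had no cluster mean above 19.3 CPM and were called in no comparison. They are Col2a1, Col4a3, Col4a5, Col4a6, Col6a3, Col6a5, Col6a6, Col7a1, Col8a2, Col10a1, Col13a1, Col16a1, Col17a1, Col28a1, Lama1, Lama3 and Lamb3. Of all 54 genes, 42 passed the filter on low counts in at least 1 class and could be tested there.

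The first comparison asks how expression differs between P21 and adulthood. The 6 saline P60 libraries were set against the 3 P21 libraries within each class with edgeR's quasi-likelihood test. Calls needed more than a 1.5-fold difference together with an adjusted p (Benjamini-Hochberg, over every gene tested in the class) under 0.05. A positive log2 fold change means a higher level at P60, and each is given with an approximate standard error. This is the absolute log2 fold change divided by the square root of the F statistic of the test. Age cannot be told apart from preparation, for which the labels give no batch. Nor can it be told apart from the food training, catheter surgery and saline self-administration, which only the adults had.

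In Endo, the type IV collagen genes Col4a1 and Col4a2 and the laminin genes Lamb1, Lamc1 and Lama4 were called lower in adults, while Lamb2, Lama5, Lama2 and Lamc3 were not called. Of 54 collagen and laminin genes, 23 passed the filter on low counts, and 10 of these were called lower and 1 higher. A gene low at either age could pass through its level at the other age alone, so these counts are a description. Over all 10629 genes tested in Endo, 13.3% were called and 6.92% were called lower. With the same limit, the median log2 fold change was -0.48 over the 23 genes and -0.01 over all genes tested.

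Col4a2 was at 556, 590.0 and 624 CPM in the P21 libraries and at 131, 145 and 159 CPM (lowest, median and highest) in the 6 saline P60 libraries. It fell 4.30-fold, by 2.11 ± 0.10 on the log2 scale (edgeR adjusted p = 7.24e-08). Col4a1 was at 369.6, 306 and 315 CPM at P21 and at 80.4, 101.3 and 119 CPM at P60, and fell by 1.80 ± 0.12 (edgeR adjusted p = 1.72e-06). The ages did not overlap for either gene. The 2 genes lie head to head on chromosome 8 of NCBIM37, Col4a1 on the minus strand from 11198423 to 11312826 and Col4a2 on the plus strand from 11312805 to 11449287, so that their annotated starts overlap by 22 bases.

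Among the laminin chains, Lamb1 had the largest change. It was at 46.6, 71.0 and 68.2 CPM at P21 and at 6.00, 9.30 and 11.4 CPM at P60, a fall of 2.84 ± 0.20 on the log2 scale (edgeR adjusted p = 1.81e-06). Lamc1 was at 160.4, 204 and 207 CPM at P21 and at 82.8, 102 and 103 CPM at P60 (log2 fold change -1.03 ± 0.12, edgeR adjusted p = 7.11e-05). The values of both genes were higher in every P21 library than in any saline P60 library. Lama4 was at 100.7, 119 and 108 CPM at P21 and at 54.0, 76.7 and 92.6 CPM at P60, with a smaller difference of -0.63 ± 0.15 (edgeR adjusted p = 0.00929). Its call was lost without P21 library 2 (-0.57, edgeR adjusted p = 0.0514), and its fold fell below the limit without saline library 11 (-0.56) or saline library 3 (-0.55). Against the saline 48 h libraries only, it was -0.39 and not called (edgeR adjusted p = 0.155).

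Lamb2, in contrast, was at 141, 149 and 144 CPM at P21 and at 157, 175 and 204 CPM at P60. It was not called (0.19 ± 0.12, 95% interval -0.04 to 0.42, edgeR adjusted p = 0.273). Lama5 was at 38.0, 34.9 and 39.8 CPM against 39.0, 41.1 and 56.0 CPM in saline P60 and also did not pass (0.12 ± 0.14, 95% interval -0.15 to 0.40). Both intervals, which are approximate, lie inside a 1.5-fold change. The differences for Lama2 (-0.05 ± 0.22), Lamc3 (0.42 ± 0.16, edgeR adjusted p = 0.0889), Col27a1 (0.20 ± 0.17) and Col18a1 (-0.08 ± 0.32) did not pass either. As a share of the UMIs of both beta chain genes, Lamb1 made up from 24.8% to 32.3% in the P21 libraries and from 3.09% to 6.32% in the saline P60 libraries. This ratio was chosen after the values had been seen and is given without a test.

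**Figure D2:**
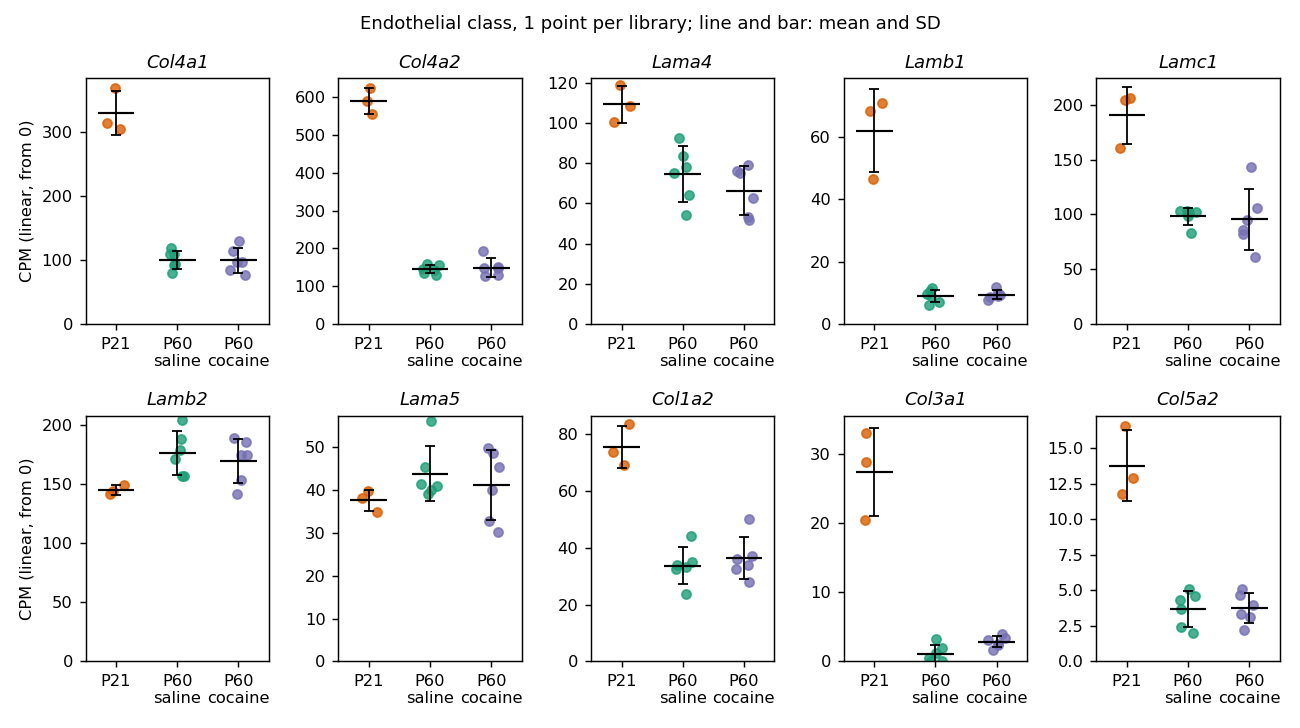
CPM of 10 collagen and laminin genes in the Endo class, with 1 point per library (3 P21, 6 saline P60 and 6 cocaine P60) and lines and bars for mean and SD, on linear axes from 0. Col4a1, Col4a2, Lamb1 and Lamc1 are higher in each P21 library than in any saline P60 library, whereas Lamb2 lies between 141 and 149 CPM at P21 and between 157 and 204 CPM in saline P60.

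The bases before the annotated start of Lamb1 are shown because it had the largest change of the laminin genes in Endo. They are written 5′ to 3′ on the strand of the gene, from NCBIM37, the build of the authors' alignment, and outside every annotated exon: chr12:31949908-31950098 on the plus strand. Capitals mark the GC box (GGGCGG or CCGCCC), the CCAAT box (CCAAT or ATTGG) and the TATA box (TATAAA or TTTATA), searched on both strands with overlaps counted.
Lamb1: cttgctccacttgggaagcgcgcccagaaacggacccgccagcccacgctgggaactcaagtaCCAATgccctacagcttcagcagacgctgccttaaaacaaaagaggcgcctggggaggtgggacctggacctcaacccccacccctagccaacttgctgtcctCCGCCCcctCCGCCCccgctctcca
The Lamb1 stretch of 191 bases held 2 GC boxes and 1 CCAAT box. Over the 250 bases before the start, a GC box was found in 29 of 53 collagen and laminin genes searched (54.7%) and in 41.0% of 22372 protein-coding genes. Unlike the Lamb1 stretch shown, these windows were not limited to bases outside annotated exons. Those of Col4a1 and Col4a2 were exonic over all 250 bases. A CCAAT box was found in 32.1% of them against 34.9% of all, and a TATA box in 11.3% against 12.2%. A match of these letters is a description and not a binding site.

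Of the 11 fibril-forming collagen genes, 6 passed the filter in Endo. Col3a1, Col5a2, Col5a3 and Col1a1 held at most 11 UMIs in any saline P60 library and passed through P21, where they are high, so how many of the family were lower is not a result. Col27a1 is given above. Col1a2 was at 69.1, 73.7 and 83.6 CPM at P21 and at 23.9, 33.5 and 44.2 CPM at P60 (-1.24 ± 0.15, edgeR adjusted p = 0.000107). Col3a1, a chain of elastic tissues and vessel walls, was at 20.4, 32.9 and 28.8 CPM at P21 and between 0 and 3.19 CPM, with a median of 0.865 CPM, at P60 (-4.39 ± 0.42, edgeR adjusted p = 1.76e-05). Col5a2, a regulator of fibril width, was at 11.8, 12.9 and 16.6 CPM at P21 and at 2.00, 4.02 and 5.11 CPM at P60 (-1.91 ± 0.29). No saline P60 library reached the lowest P21 library for Col1a2, Col3a1 or Col5a2.

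The last 3 called genes rest on few UMIs. Col1a1 was at 8.84, 14.9 and 7.88 CPM at P21 and between 0 and 5.29 CPM, median 0.795 CPM, at P60 (-2.55 ± 0.62, edgeR adjusted p = 0.0143), and the call was lost without P21 library 2 (-2.24, adjusted p = 0.0746) and against the saline 15 d libraries only (-1.67, adjusted p = 0.0941). Col5a3 was at 12.1, 5.49 and 6.31 CPM at P21 and at 1.06, 2.48 and 6.00 CPM at P60 (-1.76 ± 0.45, edgeR adjusted p = 0.0157), and was not called without P21 library 1 (-1.31, adjusted p = 0.115) or against the saline libraries of any single Period (-2.28 to -1.10, adjusted p from 0.0514 to 0.256). Col4a4, a type IV chain of specialized basement membranes, was the only one called higher, at 1.07, 1.18 and 0.79 CPM at P21 and at 1.2, 4.45 and 6.73 CPM at P60 (1.94 ± 0.57, edgeR adjusted p = 0.0315). A P21 library held 2 to 4 UMIs of Col4a4, so the gene passed the filter through P60, where it is high. With DESeq2 in place of edgeR it was not called (adjusted p = 0.0544), nor in the cells whose class and cluster agree (1.72, adjusted p = 0.0543), and it could be tested in 11 alternatives only.

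**Figure D3:**
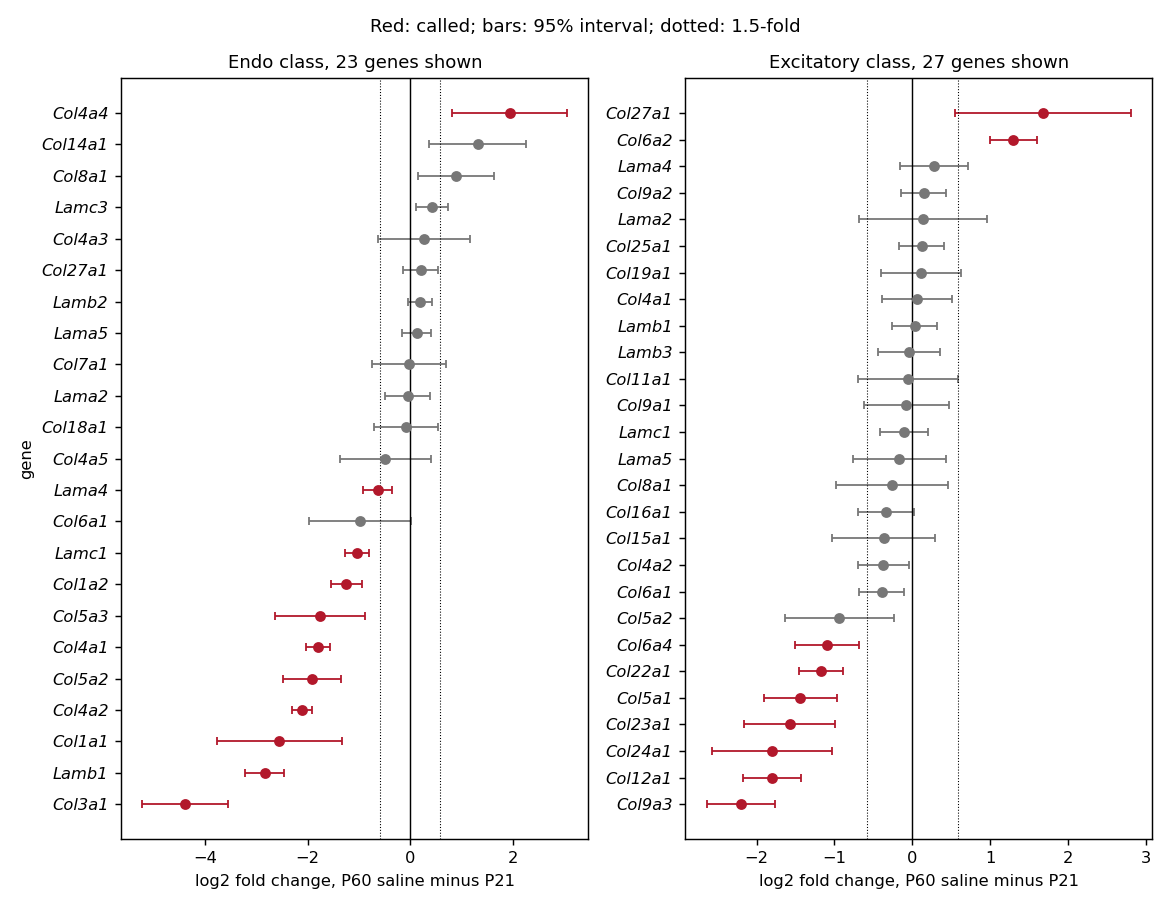
Log2 fold change (P60 saline minus P21, horizontal axis) with its 95% interval for the collagen and laminin genes tested in Endo (23 genes) and for 27 of the 28 tested in excitatory neurons. Red points were called and dotted lines mark 1.5-fold. In Endo, 10 red points lie to the left and only Col4a4 to the right, while in excitatory neurons 7 lie to the left and 2, Col6a2 and Col27a1, to the right.

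The Endo class holds transcripts of pericytes and other mural cells beside those of endothelial cells, and the summed levels of some mural markers differed between ages. All 8 endothelial and all 8 pericyte markers were found at both ages. The endothelial markers summed to 13435 to 16092 CPM at P21 and 14704 to 19206 CPM in saline P60 libraries, the pericyte markers to 4735 to 5876 and 6346 to 9041 CPM, and the 7 smooth muscle markers to 734 to 751 and 1026 to 1715 CPM. The 8 fibroblast markers were at 271 to 347 and 205 to 508 CPM. Haemoglobin genes (2 of 3 listed were in the matrices) held 28731 to 39145 CPM at P21 and 17499 to 28790 CPM at P60, and leaving them out changed none of the calls. The pericyte and smooth muscle sums were thus higher in every saline P60 library than in any P21 library. Cells in which pericyte markers held at least 20% of the UMIs of both marker lists made up from 50.6% to 61.1% of the Endo cells in P21 libraries and from 57.3% to 65.3% in saline P60 libraries, so these shares overlapped. Neuron markers were at 344 to 752 CPM at P21 and 54.8 to 641 CPM at P60, and their part in the results was not tested.

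To see the genes in cells with few pericyte transcripts, the Endo cells were split by the share of pericyte markers among the UMIs of both marker lists, an analysis added after the data were examined. This share was under 10% in 1098 of 3566 P60 cells and 707 of 2047 P21 cells, with 473 and 189 cells between 5% and 15%. In the cells under 10%, Col4a1 (-1.49 ± 0.22, edgeR adjusted p = 0.000296), Col4a2 (-1.701 ± 0.15, edgeR adjusted p = 4.34e-07) and Lamc1 (-1.12 ± 0.21, edgeR adjusted p = 0.00143) were again called lower, the only 3 calls among 6 genes tested, against 871 calls among all 7031 genes. Lama4 (-0.34 ± 0.20, edgeR adjusted p = 0.27) was not. Lamb1 did not pass the filter there, with 15.6 to 29.3 CPM at P21 and 0 to 3.57 CPM at P60. In cells with a share of at least 20%, 10 of 17 genes tested were called, against 1135 of all 9535. Some genes low at 1 age could pass the filter through the other age alone, so the counts in both sets of cells are a description. Col3a1 in the cells of at least 20%, for example, had a mean of 40.7 CPM at P21 and 1.71 CPM in saline P60.

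Several of the genes were low in the cells under 10%. Col1a2 had a mean of 112.5 CPM at P21 in the cells of at least 20% and 4.31 CPM in those under 10%, and for Col3a1 the means were 40.7 and 1.03 CPM. Lama2 and Lamc3 at P60 were at 35.8 and 42.5 CPM in the former and 1.92 and 8.86 CPM in the latter. Lamb1 was at 81.4 and 24.3 CPM at P21. Since the split was made on transcripts of the same cells, these differences carry no test.

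**Figure D4:**
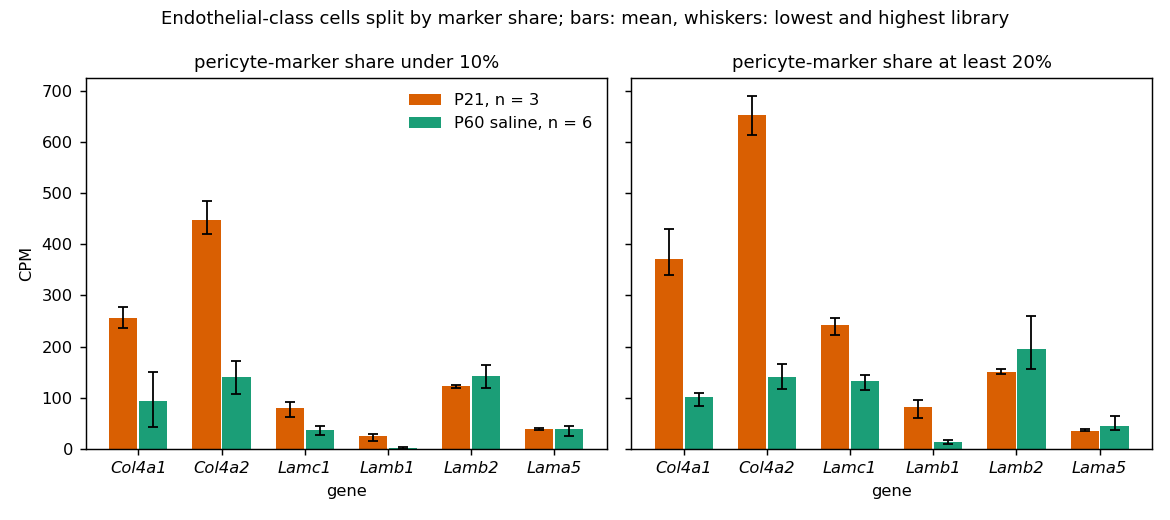
Mean CPM of 6 genes in Endo cells with a pericyte-marker share under 10% (left) and of at least 20% (right), at P21 (3 libraries) and in saline P60 (6 libraries), with whiskers from the lowest to the highest library. Col4a1, Col4a2, Lamc1 and Lamb1 are lower at P60 in both panels, while the ranges of Lama5 meet or overlap in both.

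Genes that act on these chains were examined from 4 lists, whose counts are to be read against the 13.3% of all Endo genes called and the 6.92% called lower. Listed genes low at 1 age could pass the filter through the other age alone, so the counts and medians of the 4 lists are a description. For collagen processing, 17 of 26 listed genes were tested in Endo, with 1 called higher, 2 called lower, a share near that of all genes, and a median log2 fold change of -0.26. Serpinh1, the collagen chaperone HSP47, fell from 916 ± 236 CPM (SD, n = 3) to 413 ± 98.5 CPM (SD, n = 6), and Loxl2, a crosslinking enzyme, from 8.32 to 2.54 CPM, while P4ha2, a prolyl hydroxylase, rose from 8.13 to 32.4 CPM (log2 fold change 1.92 ± 0.18, edgeR adjusted p = 1.5e-05). Loxl2 was low at P60 and may have passed the filter through P21 alone. Of 15 other basement membrane genes tested, 6 were called lower and 2 higher (median -0.45). Nid1, which links laminin to type IV collagen, fell from 208 to 63.6 CPM (-1.79 ± 0.14) and its relative Nid2 fell by 1.958 on the log2 scale. Pxdn, which crosslinks type IV collagen, fell by 2.24 and the collagen-binding Sparc by 1.49, from 4427 to 1675 CPM.

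Receptor genes had no call to lower levels in Endo, with 3 of 11 tested called higher and a median of 0.26. Bcam, a receptor of laminin alpha 5, rose from 97.0 ± 21.1 to 364 ± 36.1 CPM (SD, n = 3 and 6; log2 fold change 1.82 ± 0.14), Gpr56, a collagen receptor, rose by 1.31 and the laminin-binding integrin gene Itga7 by 0.95. Of 11 degradation genes tested, 4 were called lower and 2 higher (median -0.70). The inhibitors Timp3, from 366 to 1525 CPM, and Reck, from 11.1 to 57.9 CPM, were the ones called higher, and Mmp15, a membrane-bound protease, fell by 2.16 and Adamts9 by 1.86.

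In the other glial classes, between 1 and 4 of the genes could be tested between ages. In Oligo, where 16.6% of 5159 genes were called, Col9a3 was the only one tested and was lower in adults. It was at 77.8, 166 and 139 CPM at P21 and at 22.1, 61.4 and 82.6 CPM at P60 (-1.24 ± 0.30, edgeR adjusted p = 0.0100), with 1 saline library above the lowest P21 library. The call was lost without P21 library 2 (-0.95, edgeR adjusted p = 0.0598) and against the saline libraries of maintenance only (-0.85, adjusted p = 0.172) or 15 d only (-1.09, adjusted p = 0.0996). In NF Oligo, with 5.96% of genes called, none of 3 genes was called by edgeR, although 2 had an unadjusted p below 0.05. Col9a3 there was at 701, 937 and 902 CPM at P21 and at 799, 357, 668, 612 and 495 CPM in 5 saline libraries (-0.51 ± 0.19, edgeR adjusted p = 0.132), with overlapping ranges. In OPC, where P21 had 2 libraries of 10 cells or more and 20.5% of genes were called, the only gene tested was Col9a3, at 44.7 and 41.4 CPM against 41.5 to 139 CPM (1.13 ± 0.53, edgeR adjusted p = 0.141), which was not called and had no unadjusted p below 0.05. Only 22 P21 cells of this class lay in a cluster of the same name, and no value is given for them alone.

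In the Astro class (7.62% of genes called) 1 of 4 genes was called and in microglia (42.3%) both of 2 were, and the levels behind these calls differed when cells whose labels disagree were left out. Col4a2 was at 28.1, 54.4 and 39.0 CPM in the Astro class at P21 and at 4.43 to 10.2 CPM in 5 saline libraries (-2.16 ± 0.46, edgeR adjusted p = 0.0142), and the call was lost without P21 library 2 (-1.957, adjusted p = 0.0579). A saline library held 1 to 9 UMIs of Col4a2, so the gene passed the filter through P21, where it is high, and the size of the fold is uncertain. The endothelial markers summed to 685 to 1398 CPM in these P21 cells and to 16.9 to 209 CPM at P60. In the astrocytes whose cluster had the same name, Col4a2 was at 8.86 to 18.2 CPM at P21, on 14 UMIs, and was not tested.

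In the microglia class, Col4a2 was at 47.2, 103 and 93.3 CPM at P21 and at 0 to 9.21 CPM in 6 saline libraries (-4.54 ± 0.69, edgeR adjusted p = 0.00111). The saline libraries held 4 UMIs of it in all, so it passed the filter through P21 and the size of the fold is uncertain. Endothelial markers were at 1220 to 3577 CPM in these P21 cells and at 19.8 to 359 CPM at P60, and oligodendrocyte markers at 414 to 1225 and 47.6 to 111 CPM. Restricted to the 182 of 329 P21 cells whose cluster agreed, Col4a2 was at 0 to 23.8 CPM on 5 UMIs and was not tested. Col27a1, the leading collagen of microglia, was at 31.2, 24.3 and 20.7 CPM at P21 and at 46.1, 71.9 and 84.9 CPM at P60 (1.701 ± 0.36, edgeR adjusted p = 0.00367). In the cells with agreeing labels it was at 39.4 to 47.5 CPM at P21, on 18 UMIs, and the call was lost (0.80, edgeR adjusted p = 0.524), as it was against the saline 15 d libraries only (0.98, adjusted p = 0.226).

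In excitatory neurons, 28 genes were tested, of which 7 were called lower and 3 higher in adults. A gene low at either age could pass the filter through the other age alone, so these counts and the median below are a description. Over all 13104 genes, 18.1% were called and 10.1% were called lower. The median log2 fold change was -0.14 over the 28 genes and -0.01 over all. Most called genes were at a few CPM only.

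Col12a1 was the highest of them, at 41.3, 25.6 and 27 CPM in the P21 libraries and at 6.28, 8.01 and 12.0 CPM in saline P60 (-1.81 ± 0.19, edgeR adjusted p = 4.46e-05). Its class value also depends on the share of cells in the clusters that hold it, which was not held fixed. Values within clusters are given below. Col22a1, a collagen of tissue junctions, was at 9.57, 11.9 and 14.1 CPM against 3.99, 5.02 and 5.86 CPM (-1.18 ± 0.15), and Col6a4 at 8.13, 8.79 and 7.48 CPM against 2.38, 3.59 and 5.59 CPM (-1.09 ± 0.21). The ages did not overlap for any of the 3 genes. The call of Col6a4 was lost against the saline maintenance libraries only (-0.57, edgeR adjusted p = 0.0770). Col23a1, a membrane-spanning collagen, was at 5.24, 9.77 and 12.7 CPM at P21 and 1.72, 2.55 and 4.75 CPM at P60 (-1.58 ± 0.30). Col5a1 (-1.44 ± 0.24) was at 2.56 to 3.22 CPM at P21 and 0.616 to 1.42 CPM at P60, and Col24a1 (-1.80 ± 0.39) at 1.00 to 1.72 CPM and 0.121 to 0.677 CPM. A saline library held 1 to 22 UMIs of Col24a1 and a P21 library 20 to 25. That gene passed the filter through P21, where it is high, and its fold is uncertain. Against the saline 15 d libraries only, the calls of Col23a1 (-1.39, edgeR adjusted p = 0.0956) and Col24a1 (-1.32, edgeR adjusted p = 0.0561) were lost. Col9a3 fell from 3.52 to 3.80 CPM at P21 to 0.483 to 1.12 CPM at P60 (-2.20 ± 0.22). A saline library held 4 to 32 UMIs of Col9a3 and a P21 library 44 to 95, so its fold is uncertain. The markers of mature oligodendrocytes summed to 23.5 to 58.3 CPM in these neurons at P21 and 12.1 to 32.8 CPM at P60. Those of newly formed oligodendrocytes, the class highest for Col9a3, are a separate list and are not given here. The part of transcripts from either class in the Col9a3 result was not tested.

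Among the genes called higher in adult excitatory neurons were Col6a2 and Col27a1, chains of different collagens. Col6a2, a type VI chain, was at 2.32, 1.95 and 2.47 CPM against 4.92, 5.28 and 5.96 CPM (1.29 ± 0.15), while its partner Col6a1 was not called (-0.40 ± 0.15, edgeR adjusted p = 0.0513). Col27a1 was at 0.48, 0.16 and 0.15 CPM against 0.121, 0.857 and 1.79 CPM (1.68 ± 0.58, edgeR adjusted p = 0.0341), and its call was lost in 9 of 20 alternatives, among them leaving out P21 library 2 or 3 or saline library 2, 5, 7 or 11 (1.32 to 1.704, adjusted p up to 0.115). A P21 library held 2 to 12 UMIs of Col27a1, so the gene passed the filter through P60, where it is high. Col25a1 (0.12 ± 0.15) and Lamb1 (0.03 ± 0.15) were not called in excitatory neurons.

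In inhibitory neurons, with 14.1% of genes called, 2 of 5 genes were called. Col19a1 was at 53.5, 73.2 and 77.9 CPM at P21 and at 22.3, 36.2 and 82.5 CPM in saline P60 (-0.74 ± 0.23, edgeR adjusted p = 0.0320). The highest saline library exceeded every P21 library. Col14a1 was at 6.63, 5.97 and 2.496 CPM against 4.33, 16.5 and 24.05 CPM (1.36 ± 0.43, edgeR adjusted p = 0.0323). A P21 library held 5 to 17 UMIs of Col14a1, so the gene passed the filter through P60, where it is high. Each call was lost in 8 of 21 alternatives. That of Col19a1 was lost without P21 library 2 or 3 and without saline library 2, 5, 7 or 11, with log2 fold changes from -0.74 to -0.63 and edgeR adjusted p from 0.0568 to 0.148. That of Col14a1 was lost without P21 library 2 or 3 and without saline library 3, 11 or 12, with log2 fold changes from 1.07 to 1.47 and edgeR adjusted p from 0.0518 to 0.147. Against single Periods the values moved further, to -0.143 for Col19a1 with the saline maintenance libraries only (edgeR adjusted p = 0.903) and to 0.179 for Col14a1 with the saline 48 h libraries only (edgeR adjusted p = 0.902).

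Between ages, 29 clusters of neurons could be tested. They gave 46 tests of these genes with 13 calls, while 10.6% of all gene tests over these clusters were called. A gene low at either age could pass the filter through the other age alone, so these counts are a description. For example, a saline library held 1 to 4 UMIs of Col6a4 in Exc_9 and 0 to 18 of Col4a2 in Exc_19. Col12a1 was called lower in 4 of the 5 clusters in which it was tested, with log2 fold changes of -2.11 in Exc_18, -2.08 in Exc_20, -1.37 in Exc_19 and -1.09 in Exc_21, and -0.40 in Exc_8, where it did not pass. In Exc_21, it was at 164, 115 and 129 CPM at P21 and at 37.5 to 84.4 CPM in the 6 saline libraries. Col22a1 was called lower in 3 of 4 clusters (Exc_12, Exc_14 and Exc_25), Col4a2 in 2 of 3 (Exc_14 at -1.15 and Exc_19 at -1.17, with 0.12 in Exc_25), and Col6a4 in the 1 cluster tested, Exc_9 (-1.31). In the excitatory class as a whole, endothelial markers summed to 62.4 to 74.6 CPM at P21 and 21.2 to 43.0 CPM in saline P60, and pericyte markers to 18.1 to 20.02 and 7.97 to 17.5 CPM, and their part in the Col4a2 result was not tested. Col23a1 was called in 0 of 3 clusters (log2 fold changes from -1.45 to -1.27, edgeR adjusted p from 0.0649 to 0.0785) and Col5a1 was not called in the 1 cluster tested (-0.63). Calls to higher levels included Col25a1 in Exc_16 (0.77), the only call for it in 15 clusters, of which 9 had a lower and 6 a higher value at P60, and Col6a1 in Exc_18 (1.14), its only call in 10 clusters, 5 lower and 5 higher. The P21 cells of non-neuronal classes carry only the class name in place of a cluster, so such clusters could not be compared.

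The second comparison asks whether cocaine changed these genes in the adult PFC, at each Period. No collagen or laminin gene was called by edgeR in any class tested, which were all 8 at 48 h and 15 d, and 5 at maintenance and over all Periods, without Astro, OPC and NF Oligo. At maintenance 50 tests of these genes gave 0 calls, against 0.00459% of all gene tests, and 1 had an unadjusted p below 0.05. At 48 h it was 0 of 62 against 0.00661%, with 2 below 0.05, and at 15 d 0 of 62 against 0.327%, with 4 below 0.05. Over all Periods together 0 of 50 tests were called against 0.00689%, with 3 below 0.05. DESeq2 also called none. The differences of the cocaine effect between Periods gave 0 calls in 50 tests each, with 1, 3 and 2 tests at an unadjusted p below 0.05. Of all gene tests, 0% were called for 48 h against maintenance, 0% for 15 d against maintenance and 0.0115% for 15 d against 48 h.

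For the abundant vascular genes the intervals over all Periods together were narrower than 1.5-fold, while some at single Periods were not. Over all Periods, cocaine minus saline in Endo was 0.01 ± 0.10 for Col4a1 (95% interval -0.19 to 0.21), 0.07 ± 0.09 for Col4a2 (-0.11 to 0.26) and -0.02 ± 0.09 for Lamb2 (-0.19 to 0.16). It was -0.05 ± 0.11 for Lamc1 (-0.26 to 0.17) and -0.13 ± 0.13 for Lama4 (-0.39 to 0.13). Each of these intervals lies inside a 1.5-fold change. At single Periods, the intervals of Col4a1 and Lamb2 also did, but that of Col4a2 reached 0.67 at 48 h (from 0.02), that of Lama4 reached -0.78 at 48 h (up to 0.12), and those of Lamc1 ran from -0.07 to 0.69 at maintenance and from -0.72 to -0.02 at 15 d. Lamc1 in Endo was at 144 and 106 CPM in the cocaine and 102.8 and 103 CPM in the saline libraries at maintenance, and at 61.5 and 95.4 against 98.5 and 102 CPM at 15 d. The difference of the cocaine effect between these Periods was -0.68 ± 0.26 and did not pass (edgeR adjusted p = 0.99995).

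By cluster, 0 of 67 tests of these genes were called at maintenance (0.0126% of all gene tests), with 2 at an unadjusted p below 0.05, and 0 of 72 at 48 h (0.00831%), also with 2. Over all Periods 0 of 53 were called (0.0345%), with 4 below 0.05. At 15 d 1 of 110 was called, a share near the 1.06% of all gene tests, and 9 had an unadjusted p below 0.05. The 15 d libraries held 27704573 UMIs or more and the other P60 libraries 20336658 or fewer, so the Periods differ in what could be called. The call was Col12a1 in Exc_21, at 108 and 121 CPM in the cocaine and 47.4 and 84.4 CPM in the saline libraries (0.82 ± 0.22, edgeR adjusted p = 0.0361). Both cocaine values exceeded the other 10 P60 libraries, which ranged from 37.5 to 84.4 CPM, while the P21 values were 115 to 164 CPM. In Exc_10 (0.98 ± 0.30, edgeR adjusted p = 0.0786) and Exc_19 (0.81 ± 0.26, edgeR adjusted p = 0.123), Col12a1 was higher with cocaine at 15 d without passing, as in Exc_8 (0.68 ± 0.32, edgeR adjusted p = 0.605), while in Exc_18 the difference was -0.05 ± 0.51. In all excitatory neurons at 15 d it was at 15.6 and 15.9 CPM with cocaine and 7.97 and 12.0 CPM with saline (0.72 ± 0.22, edgeR adjusted p = 0.229). It was called there without saline library 12 (1.031, edgeR adjusted p = 0.0339), a fit with 1 saline library at 15 d, which is assumed to vary like the libraries of the other groups. Whether the cocaine effect in Exc_21 differed between Periods was not tested.

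**Figure D5:**
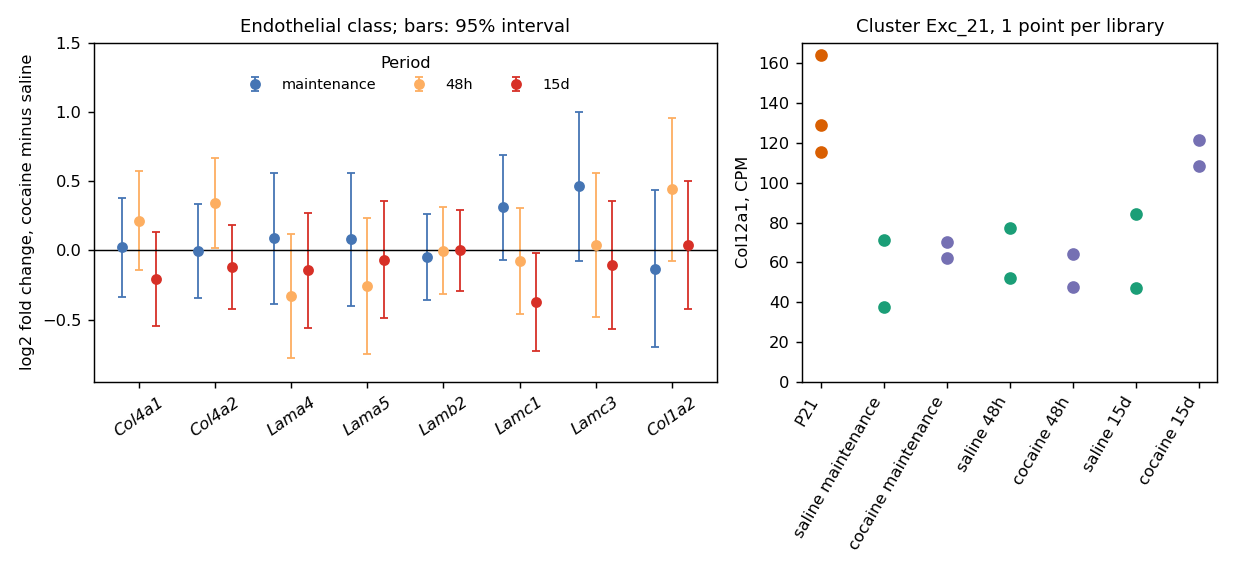
Left, log2 fold change (cocaine minus saline) with its 95% interval for 8 genes in the Endo class at the 3 Periods. Right, CPM of Col12a1 in cluster Exc_21 by group, 1 point per library: the cocaine libraries at 15 d are at 108 and 121 CPM, the other P60 libraries between 37.5 and 84.4 CPM and the P21 libraries between 115 and 164 CPM.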

How the data were processed

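Single cell RNA sequencing libraries were aligned to mm9 with Cell Ranger by the authors, who deposited raw UMI counts per gene and cell. Their table of retained cells names a class and a cluster, and gives the mitochondrial fraction of UMIs that the authors had used as a filter. Clusters were made by the authors with Seurat 2.1.0 after removal of double droplets, and P21 cells were named by correlation with P60 clusters. The authors' joined matrix holds the same counts and was not used.

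Retained cells were taken as deposited and their UMI totals equalled the table for all 35360. Counts were summed per library and class or cluster with at least 10 cells, leaving out 156 mitochondrial and ribosomal protein genes. Sums were tested with edgeR 4.0.16 (TMM, filterByExpr, robust quasi-likelihood F-test, R 4.3.3) on all genes, with Benjamini-Hochberg adjustment. Ages were compared with 1 mean per age. Cocaine was compared with saline in 1 fit of the 12 P60 libraries with 1 mean per group, and 95% intervals are normal approximations. DESeq2 1.42.0, other scalings, filters, cell minimums and libraries were alternatives, and the code was tested on simulated data. Libraries held 8375172 to 42892922 UMIs, which limits genes of a few CPM. Genes were described at 20 CPM or more in a class or cluster, or when called, and partner genes were those called with the largest change in Endo, up to 4 per list. The members, the gene lists and the tests were chosen with earlier results of these data known. Positions and sequences are from NCBIM37 and its GENCODE annotation. The values of 1 gene, which the counts include, are not reported here.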

Additional observations from a re-analysis of the deposited data

Results flagged for a closer look

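Over the saline P60 libraries, the 3 highest genes of a class and the genes followed by library were searched for a value far from the others, in 48 groups of libraries. Chance flags about 1 in 20 such groups, and 5 were flagged. Lama5 in Endo was at 56.0 CPM in saline library 2 and at 39.0 to 45.4 CPM in the others. Lamc1 in Endo was at 82.8 CPM in saline library 7, below the 98.5 to 103 CPM of the others. Lama2 in Astro was at 39.4 CPM in saline library 7, on 7 UMIs, and at 27.4 to 30.5 CPM in the others. Col6a1 in microglia was at 41.5 CPM in saline library 11, on 9 UMIs of 54 cells, and at 0 to 7.75 CPM in the others. Col19a1 in inhibitory neurons was at 82.5 CPM in saline library 3, from 28 cells, and at 22.3 to 44.4 CPM in the others.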

How the results depend on the processing

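Between ages, 27 calls of collagen and laminin genes over the 8 classes became 46 with no filter on low counts and 21 to 26 when each library was left out in turn. The 11 calls in Endo became 3 in cells with a pericyte-marker share under 10%, where 6 genes could be tested and 871 of all 7031 genes were called. Without single libraries they became 9 to 11, and the 10 in excitatory neurons became 9 to 11. Over all genes, the main runs called from 5.96% (NF Oligo) to 42.3% (microglia), and this share is not given here for the other runs. Since genes that passed the filter through 1 age alone are among those counted, the counts are a description. No called gene changed direction in any alternative run. In Endo, Col4a1, Col4a2, Lamc1, Lamb1 and Col1a2 were called in each alternative in which they were tested. So were Col3a1 and Col5a2, but these passed the filter through P21, where they are high, so no support is drawn from their runs. Calls were lost for 7 genes without P21 library 2 and for 7 with saline libraries of 15 d only. The 0 calls for cocaine at each Period became 1 with no filter and 1 without saline library 12, both Col12a1 in excitatory neurons at 15 d (the latter with 1 saline library left at 15 d, assumed to vary like the other groups), and ranged from 0 to 1 over single libraries left out, while the 0 calls over all Periods stayed at 0. No paired analysis was possible because the labels give no replicate numbers shared between groups. Shares of Endo cells per cluster between ages, and Endo without mural clusters, were not run, since P21 Endo cells carry no cluster beyond the class name. Leaving out libraries was not run by cluster. Genes of a few CPM rest on few UMIs per library, so that changes in them may not be detectable at this depth.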
